A study of Homo sapiens with 16 samples.

Results

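H3K27me3 peaks that were called in myeloma cells with wild type NSD2 and in none of the other 3 forms of the cells are described here. They were selected on called peaks alone, as the peaks of the wild type list narrower than 30000 bp that shared not a single base with an H3K27me3 peak of the D1240A, F1295A or plain TKO lists. The rule selected 397 of 3790 wild type peaks, 10.5% of that list, out of 13942 H3K27me3 peaks in the 4 lists and 45429 peaks in all 8 lists of the series. The same rule applied from the other sides left 1 of 2188 D1240A peaks (0.0457%), 9 of 2083 F1295A peaks (0.432%) and 2161 of 5881 TKO peaks (36.7%). These counts were fixed by the presence or absence of called peaks, so they describe the set and test nothing.

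The cells were TKO, a line derived from the multiple myeloma line KMS-11 and labelled as a plasma cell with the genotype KMS-11 WHSC1(+/-), which all groups share. WHSC1 is another name of NSD2. The groups were TKO cells with wild type NSD2 (WT), with NSD2 D1240A, with NSD2 F1295A, and TKO cells with no form named (TKO). Marks were mapped by ChIPmentation, in which a transposase adds adaptors to immunoprecipitated chromatin. Each form had 2 H3K27me3 samples, which the labels call biological replicates, and 1 H3K4me3 sample. Both H3K27me3 samples of a form stand behind a single list, so no value had a replicate check and no test between forms was possible. How NSD2 was put into the cells, and whether a form is 1 clone, is not given in the sources used here. Of 20 plasma cell genes, 16 carried H3K4me3 at a gene end in WT, 15 in D1240A, 16 in F1295A and 14 in TKO cells, and 1, 1, 1 and 2 of them carried H3K27me3.

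H3K27me3 is written by Polycomb repressive complex 2 (PRC2) and lies over silent genes, often those of other cell types. H3K4me3 marks active promoters, and promoters that carry both marks are called bivalent. NSD2 methylates H3K36, a modification known to oppose PRC2 on the same histone tail. In t(4;14) myeloma, NSD2 is placed under immunoglobulin gene control, and mature plasma cells silence B cell regulators such as BCL6.

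Start regions of 6 genes under these peaks are printed to show the DNA on which the H3K27me3 calls lay: IL6R, BAMBI and ICAM5 had all 250 bases under H3K4me3 in all 4 forms, BCL6 and CYP26A1 had them under it in F1295A alone, and PLXND1 in no form. Each line holds the 250 bases before the start site of the gene as RefSeq gives it on GRCh38.p14, read 5′ to 3′ on the gene's strand, and capitals mark CG dinucleotides, the sites of DNA methylation. All 250 bases of each lay inside the peak.
BCL6, chr3:187745469-187745718, minus strand: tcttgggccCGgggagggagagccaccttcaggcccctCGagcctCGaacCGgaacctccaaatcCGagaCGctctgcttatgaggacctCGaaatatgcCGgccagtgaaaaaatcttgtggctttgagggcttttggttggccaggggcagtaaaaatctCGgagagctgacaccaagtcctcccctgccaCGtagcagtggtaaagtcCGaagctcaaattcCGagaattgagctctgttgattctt
IL6R, chr1:154405093-154405342, plus strand: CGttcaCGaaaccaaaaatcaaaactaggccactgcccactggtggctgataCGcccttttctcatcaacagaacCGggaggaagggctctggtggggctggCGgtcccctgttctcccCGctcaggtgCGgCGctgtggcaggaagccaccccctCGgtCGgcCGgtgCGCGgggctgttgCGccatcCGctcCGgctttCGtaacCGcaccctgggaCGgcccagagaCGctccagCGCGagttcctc
BAMBI, chr10:28677271-28677520, plus strand: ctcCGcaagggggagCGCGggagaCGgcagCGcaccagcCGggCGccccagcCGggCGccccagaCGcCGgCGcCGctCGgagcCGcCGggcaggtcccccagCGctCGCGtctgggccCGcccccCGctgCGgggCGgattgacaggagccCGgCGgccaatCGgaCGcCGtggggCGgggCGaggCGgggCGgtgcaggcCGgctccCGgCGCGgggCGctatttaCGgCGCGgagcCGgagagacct
ICAM5, chr19:10289702-10289951, plus strand: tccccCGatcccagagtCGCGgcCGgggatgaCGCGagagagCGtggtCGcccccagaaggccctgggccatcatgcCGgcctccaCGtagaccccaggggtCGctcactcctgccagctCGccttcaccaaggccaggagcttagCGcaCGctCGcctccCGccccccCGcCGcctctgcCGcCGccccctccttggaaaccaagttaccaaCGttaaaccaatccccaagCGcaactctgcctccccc
CYP26A1, chr10:93073225-93073474, plus strand: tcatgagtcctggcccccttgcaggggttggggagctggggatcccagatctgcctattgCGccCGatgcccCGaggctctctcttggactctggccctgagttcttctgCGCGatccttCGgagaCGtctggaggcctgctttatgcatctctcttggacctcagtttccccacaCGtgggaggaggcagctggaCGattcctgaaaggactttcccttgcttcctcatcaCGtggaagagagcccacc
PLXND1, chr3:129606677-129606926, minus strand: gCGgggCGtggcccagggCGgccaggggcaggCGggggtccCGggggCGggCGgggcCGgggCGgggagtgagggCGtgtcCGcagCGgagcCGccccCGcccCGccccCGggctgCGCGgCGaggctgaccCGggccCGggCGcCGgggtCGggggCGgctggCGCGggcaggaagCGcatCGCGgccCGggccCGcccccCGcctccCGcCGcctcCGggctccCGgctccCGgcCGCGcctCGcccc
The CG dinucleotide was counted on 1 strand, which gives the same number on the other. BAMBI and PLXND1 each had 41, a number reached by 2.16% of all promoters in the table. ICAM5 and IL6R each had 22 (37.2% of promoters had as many), BCL6 had 12 (64.5%) and CYP26A1 had 10 (68.6%), around a median of 17 over all promoters. These 6 peaks thus lay over CG-dense as well as CG-poor starts. A promoter was found for 152 of the 203 genes at peaks of the whole set (74.9%), against 79.2% of all protein-coding genes. Base composition over the set was not compared.

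The WT-only peaks were narrow and weak within their own list. Their width had a median of 6.698 kb and a range from 9 bp to 26.465 kb, and together they covered 2.85 Mb, which is 5.12% of the bases in WT peaks. The 1348 narrow WT peaks that met a peak in every other form had a median of 13.799 kb, and the 1200 that met a TKO peak and none of either mutant had 7.116 kb. The highest signal in a peak, a coverage value in the unit of the authors' peak caller, had a median of 68.0 in WT-only peaks, 119 in shared peaks and 71.0 in peaks of WT and TKO. In rank the set stood low, with a median percentile of 21.3 by total signal and 25.6 by highest signal among all WT peaks.

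**Figure D1:**
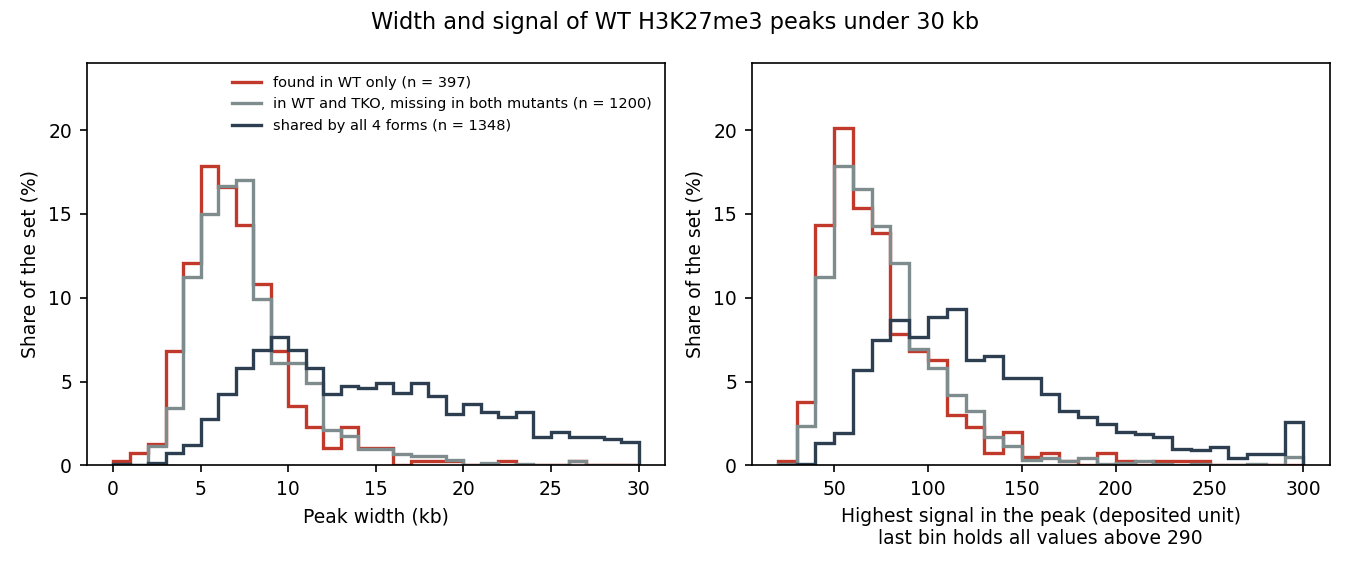
Peak width (left, in kb) and highest signal in a peak (right, in the deposited unit), each as the share of a set in percent, for WT H3K27me3 peaks under 30 kb found in WT only (red, n = 397), in WT and TKO but neither mutant (grey, n = 1200) and in all 4 forms (dark blue, n = 1348). The WT-only curve follows the grey curve and lies left of the shared peaks, with medians of 6.698, 7.116 and 13.799 kb.

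When the 3450 narrow WT peaks were ranked by total signal and split into 4 equal bins, the weakest held 208 WT-only peaks (24.1%), the next 132 (15.3%), the next 45 (5.22%) and the strongest 12 (1.39%). The share ran the same way by highest signal, at 22.1%, 11.1%, 9.05% and 3.71%. Both mutant lists reached less far down: the lowest 1% of their peaks ended at a total signal per base of 19.1 in D1240A and 18.4 in F1295A, against 10.3 in WT and 9.45 in TKO. In WT, 197 WT-only peaks (49.6%) lay under the D1240A value, 182 (45.8%) under the F1295A value and 3 under the TKO value, while 10.5%, 8.23% and 0.148% of shared peaks did. Above both mutant values 200 WT-only peaks remained, and when each list was held to its 2083 strongest peaks, 268 WT peaks had no partner, of which 60 were among the 397. The part that such differences between lists have in the absence of a peak was not tested. Scaling between lists is not given, so the signals are set side by side as descriptions.

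The member with the highest total signal lay inside CYP46A1, a cholesterol hydroxylase gene of the brain, at percentile 90.5 of the WT list by total and 74.0 by highest signal. Next came a peak near SRRM3, at 81.6 and 77.4, and a peak inside SPNS2, a transporter gene of sphingosine 1-phosphate, at 81.6 and 32.2. The totals at CYP46A1, SPNS2 and near TINAGL1 exceed the highest signal times the width, so these ranks are uncertain. The peak in RTN4R, a receptor gene of myelin inhibitors of axon growth, had the highest coverage of all WT-only peaks, 241.5 over 9.647 kb at chr22:20244139-20253785, at percentile 70.1 by total and 95.4 by highest signal. Its nearest peaks lay 2.72 kb away in D1240A, 2.74 kb in F1295A and 3.49 kb in TKO. CHST8, SDK2, TNRC18 and a peak near FBXO2 stood between percentiles 69.0 and 74.1 by total signal.

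The widest, near DIO3, a deiodinase gene, measured 26465 bp, the closest to the width limit, and stood at percentile 72.7 by total and 19.9 by highest signal. HCN4, a pacemaker channel gene, held 2 members inside its record. The larger, of 22.77 kb, stood at 69.2 and 31.7 with the nearest TKO peak 271 kb away, and the smaller, of 7.244 kb, at 17.4 and 32.2 with the nearest TKO peak 298 kb away. EVPL, which encodes envoplakin of the epidermal envelope, had a peak of 19.052 kb at 75.7 and 50.1, with its nearest TKO peak 262 kb away. CHST8, a sulfotransferase gene, had 17.564 kb at its far end, and NOS2, an inducible nitric oxide synthase gene, 15.698 kb at percentile 6.13 by highest signal. Peaks near LOC124905938 (18.414 kb), near RPS6KA4 (15.73 kb) and in SDK2 (15.415 kb) made up the 8 widest. Past the limit lay 1 more WT peak without a partner, of 30.666 kb on chromosome 1, 12.369 kb from a D1240A peak. It reached into the records of both IGSF9 and SLAMF9 and met an end of each.

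Whether the missing partner was next door or far away was read from the gap to the nearest peak of another form. The median gap was 23.3 kb, with the middle 50% of members between 6.04 and 115 kb. By form the median was 101 kb to D1240A, 96.4 kb to F1295A and 24.2 kb to TKO peaks, and the nearest of the 3 was a D1240A peak for 49 members, an F1295A peak for 46 and a TKO peak for 302. TKO also had the longest list, and its part in the short gaps was not tested. Of the 397, 81 (20.4%) had such a peak within 5 kb, 129 (32.5%) within 10 kb, 108 (27.2%) none within 100 kb and 23 none within 1 Mb.

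**Figure D2:**
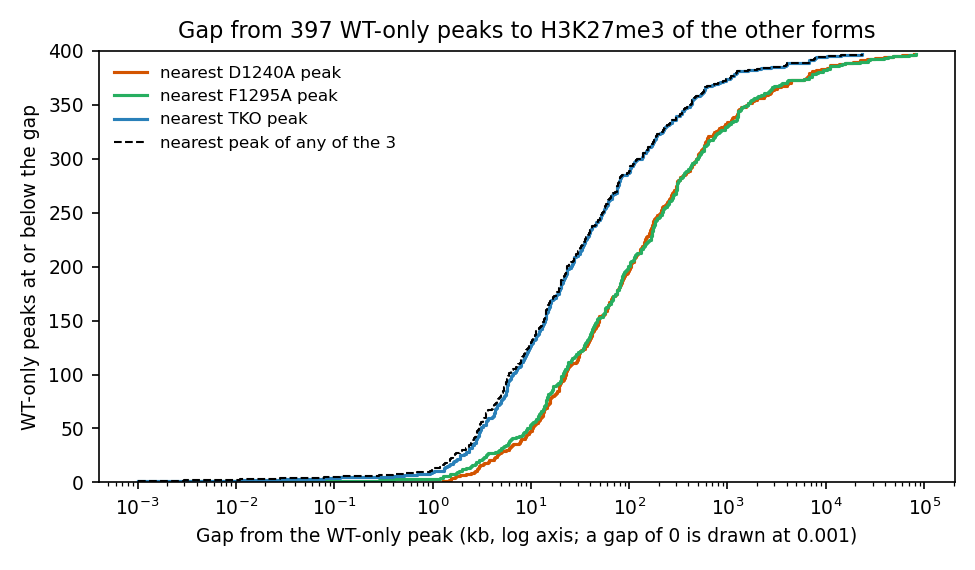
Number of the 397 WT-only peaks (vertical axis) whose gap to the nearest peak of another form, in kb on a log axis, is at or below the value shown, for D1240A (orange), F1295A (green), TKO (blue) and any of the 3 (dashed). The TKO curve lies left of both mutant curves, with medians of 24.2, 101 and 96.4 kb for TKO, D1240A and F1295A.

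At the near edge of the rule, the peak near SLC9A3 adjoined a TKO peak with a gap of 0 bp, the peak near SEH1L stood 3 bp from an F1295A peak, and those at KCNA10, near SULF2 and at GNAO1 stood 11, 28 and 79 bp from TKO peaks. Just across it, the 5 smallest overlaps were 99 bp near INSYN1, 173 bp near PPP6R3, 188 bp at DLX2, a homeobox gene, 192 bp near TNRC6C and 587 bp near MAX. The peaks near INSYN1, PPP6R3 and TNRC6C were no wider than their overlap, while that at DLX2 measured 11914 bp. In all, 12 members stood within 1 kb of a peak of another form. At the far end stood the peak near NIPAL1, 23.1 Mb from the nearest peak of another form, SPINK2, a protease inhibitor gene, at 14.4 Mb, PHLDB2 at 10.2 Mb, FOXP2 at 7.89 Mb, the peak near DMAC1 at 7.74 Mb and KIF26B at 7.65 Mb. FOXP2 encodes a forkhead transcription factor and KIF26B a kinesin-like protein. From the KIF26B peak the next WT peak was as far, at 7645 kb. Another WT peak lay within 10 kb of 140 members (35.3%), against 39.5% of peaks of WT and TKO, 45.7% of all narrow WT peaks and 54.5% of shared peaks, and the nearest WT peak was a shared one for 138 members, one of WT and TKO for 134 and another member for 83.

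The members lay on all autosomes and X. Chromosome 22 held 31 of its 178 WT peaks in the set, 17.4% (exact 95% interval 12.2 to 23.8), and chromosome 17 held 46 of 346 (13.3%), against 39 of 609 on chromosome 1, or 6.40% (4.59 to 8.65). Chromosome 10 held 10 of 177 (5.65%). Neighbouring peaks are not independent, and all intervals given cover counting error only.

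**Figure D3:**
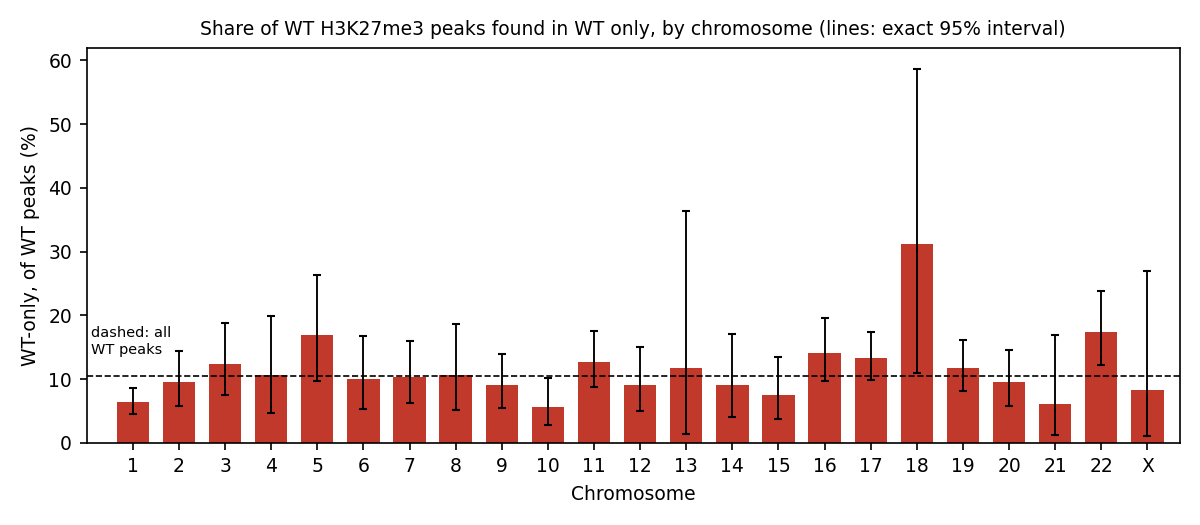
Share of WT H3K27me3 peaks found in WT only, in percent, for each chromosome (bars) with exact 95% intervals (lines) and the 10.5% of the whole list (dashed). Chromosome 22 stands at 17.4% and chromosome 1 at 6.40%, while intervals on chromosomes with few peaks, such as 13 and 18, are wide.

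Measured by its centre, a member lay on a gene end more often than a peak of either other set. The centre lay within 1 kb of an end of a protein-coding gene record in 57 members, 14.4% (11.1 to 18.2), against 8.90% of shared peaks (7.44 to 10.6) and 8.25% of peaks of WT and TKO (6.76 to 9.95). It lay farther inside a gene record in 48.4%, against 51.6% and 46.6%. Counted by any part of the peak, 159 members (40.1%) reached a gene end, against 45.3% of the wider shared peaks and 32.0% of those of WT and TKO. An annotated start site lay under 83 members (20.9%). In genes, 203 of 19974 protein-coding genes (1.02%) had a member within 1 kb of an end. Of these, 143 had no H3K27me3 peak of another form within 10 kb of their ends, while 27 had one within 1 kb. Over all protein-coding genes, 9.57% carried any WT H3K27me3 at an end.

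The independent readout was H3K4me3, which the rule did not use. It met 24 WT-only peaks in WT cells, 6.05% (3.91 to 8.86), 23 in D1240A cells, 5.79% (3.71 to 8.57), 35 in F1295A cells, 8.82% (6.22 to 12.05), and 18 in TKO cells, 4.53% (2.71 to 7.07). Among all narrow WT peaks the shares were 3.94%, 3.57%, 4.72% and 2.35%. Shared peaks stood at 3.71%, 3.78%, 4.67% (3.61 to 5.94) and 2.00%, and peaks of WT and TKO at 3.25%, 2.58%, 3.58% (2.61 to 4.80) and 2.00%. For F1295A the interval of WT-only peaks did not meet those of either other set. Shared peaks are wider, so the count was repeated in peaks of 5.308 to 8.425 kb, the middle 50% of WT-only widths. There 6.53%, 5.03%, 9.05% and 5.03% of 199 WT-only peaks met H3K4me3 in WT, D1240A, F1295A and TKO cells, against 4.31%, 3.83%, 4.31% and 1.44% of 209 shared peaks and 3.23%, 2.89%, 3.74% and 1.87% of 588 peaks of WT and TKO. At that width the F1295A interval of WT-only peaks, 5.45 to 13.9%, met that of shared peaks, 1.99 to 8.02%, and that of peaks of WT and TKO, 2.36 to 5.61%. The shares themselves came no closer, and fewer peaks were counted, which widens the intervals. The part of width in the difference was not tested. The H3K4me3 lists held 8140 peaks in WT, 7712 in D1240A, 8239 in F1295A and 7396 in TKO cells. In the same order of forms they covered 30.2, 29.1, 34.7 and 22.0 Mb. With each list held to 7396 of its strongest peaks, 21, 21, 27 and 18 of the 397 WT-only peaks met H3K4me3. Shared peaks and peaks of WT and TKO were not counted in this way, and covered bases were not made equal.

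**Figure D4:**
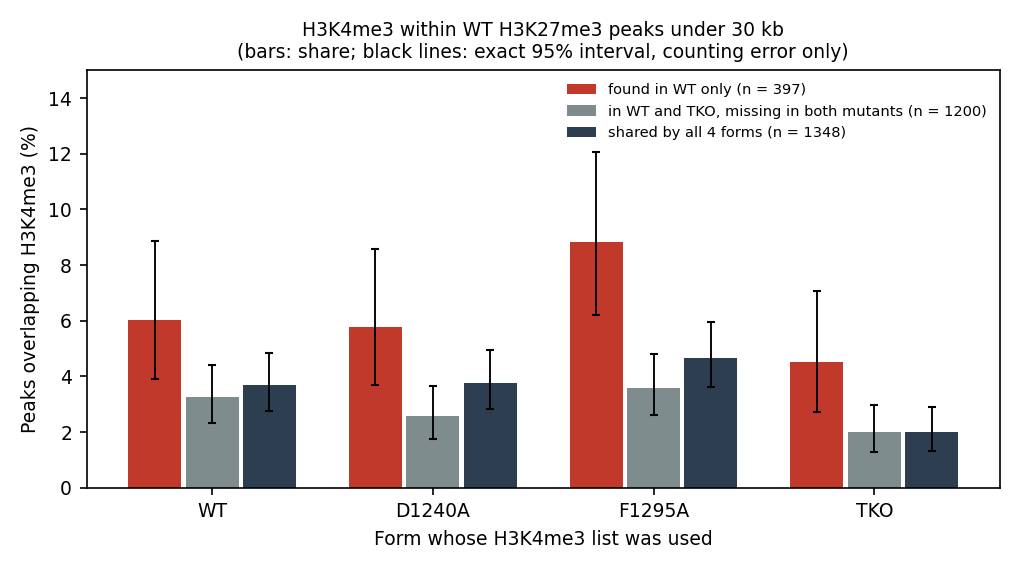
Share of WT H3K27me3 peaks under 30 kb that overlap an H3K4me3 peak, in percent, by the form whose H3K4me3 list was used, with exact 95% intervals (black lines). WT-only peaks (red) have the tallest bar in each form, 8.82% in F1295A.

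Of the 203 genes with a member at an end, 44 (21.7%) carried H3K4me3 at an end in WT, 41 (20.2%) in D1240A, 59 (29.1%) in F1295A and 36 (17.7%) in TKO cells. The 773 genes at shared peaks stood lower in each form, at 16.4%, 15.9%, 18.9% and 12.03%, as did the 1911 genes with any WT H3K27me3 at an end, which include the 203, at 16.6%, 15.4%, 19.0% and 12.6%. The intervals met in all forms but F1295A, where they were 22.9 to 35.8% at members, 16.2 to 21.8% at shared peaks and 17.3 to 20.9% over the 1911 genes. The 203 genes lay at 159 members, and genes at the same peak, such as CDHR4, INKA1 and UBA7, each counted. These intervals are therefore too narrow and serve as description only. H3K4me3 counted at either end of a gene, which need not be the end with the member, as at FAM234A in WT. The gene count was not repeated at equal peak width or with H3K4me3 lists of equal length. All protein-coding genes stood higher, at 43.6%, 41.6%, 44.5% and 39.9%. No form showed the mark at 144 of the 203 (70.9%).

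In 37 members (9.32%, against 5.22% of all narrow WT peaks) at least 1 form had H3K4me3 inside the peak. In 16 (4.03%, against 2.20%) all 4 did. FOXP2 had 5.56 kb of H3K4me3 in every form, which is its whole WT-only peak (chr7:114082555-114088111, highest signal 87.5). LEF1, the nuclear partner of beta-catenin, had 3.89 kb in WT, 6.46 kb in D1240A, 5.70 kb in F1295A and 3.77 kb in TKO cells within a peak of 7.538 kb (chr4:108166084-108173621), which stood 3.92 Mb from the nearest TKO peak. RASGRP2 and PYGM shared a peak with 4.50, 5.23, 5.53 and 3.98 kb of H3K4me3 in WT, D1240A, F1295A and TKO cells, and TNRC18 had 5.12, 6.13, 8.89 and 5.50 kb. The CXXC5 peak, at a gene for a CXXC zinc finger protein, held 5.20, 4.59, 5.30 and 4.15 kb in the same order of forms. BAMBI, a decoy receptor of TGF-beta signalling, held 3.57, 3.04, 3.51 and 2.97 kb in its peak of 3.57 kb (chr10:28675924-28679493), with a TKO H3K27me3 peak 5.71 kb away. In these peaks, both marks were called on the same bases in WT cells. The other 3 forms had H3K4me3 calls there, and their lack of an H3K27me3 call inside the peak was set by the rule. At RASGRP2, TKO cells did have an H3K27me3 peak within 1 kb of an end of the gene record. Lists from pools of cells do not tell both marks on 1 allele from a mixture of cells.

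Some members had H3K4me3 in part of the forms. KIF26B held 4.11 kb in WT, 4.11 kb in D1240A and 4.30 kb in F1295A and none in TKO cells. The peak at CAMK2N2 and EEF1AKMT4 held 3.65, 3.10 and 4.67 kb and likewise none in TKO. Together 4 members (1.01%), the others at CERCAM and CLCF1, had the mark in all forms but TKO. That share was near the 0.84% of all narrow WT peaks and the 1.04% of shared peaks, and peaks of WT and TKO stood at 0.42%. CDCA7, a cell division cycle associated gene, had 3.18 kb in WT, 3.404 kb in F1295A and 3.39 kb in TKO cells and none in D1240A.

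Of the 37, 10 members (2.52% of the 397) had H3K4me3 in F1295A alone, against 0.87% of all narrow WT peaks, 1 in D1240A alone, 1 in WT alone and 0 in TKO alone. When all 4 H3K4me3 lists were held to 7396 of their strongest peaks, 4 stayed F1295A alone. CYP26A1, which degrades retinoic acid, had its whole WT-only peak of 3.256 kb (chr10:93071750-93075005) under F1295A H3K4me3, and the nearest H3K27me3 of another form was 342 kb away. NHERF2, a scaffold protein of membrane transporters, had its whole peak of 5.637 kb under it (chr16:2024725-2030361). C11orf96 had 4.66 kb and C20orf204 3.44 kb. KREMEN2, a receptor of the Wnt inhibitor Dickkopf, had 3.58 kb in D1240A and 4.88 kb in F1295A and none in WT or TKO within its peak. The single peak with H3K4me3 in WT alone lay inside TTC39C on chromosome 18 and held 2.86 kb.

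**Figure D5:**
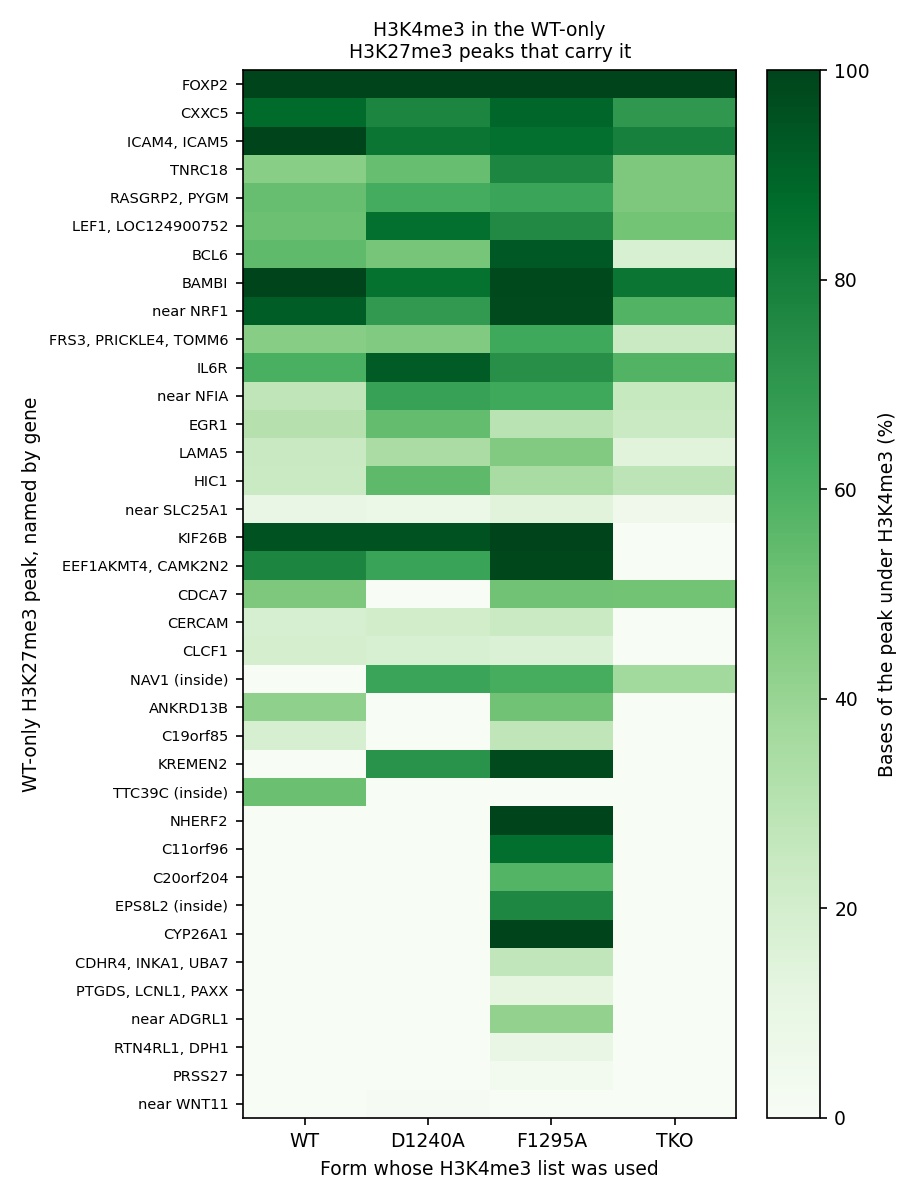
Share of the bases of each WT-only H3K27me3 peak that lay under H3K4me3, in percent (colour), in WT, D1240A, F1295A and TKO cells (columns), for the 37 peaks with any (rows, named by gene). The top 16 rows are coloured in all 4 columns, and 10 rows near the bottom are coloured in F1295A alone.

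Among 16 lists of genes, 582 genes in all, 16 genes (2.75%) had a member at an end, against 1.02% of all protein-coding genes. Any WT H3K27me3 at an end was found at 183 of the 582 (31.4%), against 9.57% of all. Genes of B cell identity gave 2 of 30 (6.67%), with 10 of the 30 under any WT H3K27me3. BCL6, the repressor that drives the germinal centre reaction, had a peak of 6.728 kb over its start (chr3:187739234-187745961) with a highest signal of 111.5. The nearest H3K27me3 of D1240A lay 2955 kb away, that of F1295A 2952 kb and that of TKO 906 kb. H3K4me3 covered 3.69 kb of it in WT, 3.29 kb in D1240A, 6.27 kb in F1295A and 1.18 kb in TKO cells. At the printed start itself H3K4me3 was called in F1295A alone. In WT, D1240A and TKO cells it lay downstream, inside the gene, and ended 2.54, 2.95 and 5.05 kb from the start. CD79B, a signalling chain of the B cell receptor, had a peak of 4.658 kb (chr17:63931817-63936474) without H3K4me3, with peaks of the other forms 11.2 to 11.9 kb away.

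Adhesion and matrix genes, the class named in the title of the series, gave 4 of 40 immunoglobulin-type adhesion genes, 1 of 36 cadherins, 0 of 26 integrins and 2 of 51 matrix genes, shares of 10.0%, 2.78%, 0% and 3.92% beside the 1.02% of all genes. Any WT H3K27me3 was found at 16, 6, 6 and 21 of them. ICAM5, a neuronal adhesion molecule, shared with ICAM4 a peak of 5.153 kb (chr19:10288899-10294051) with a highest signal of 128.5. It lay 249.3 kb from D1240A, 249.1 kb from F1295A and 205 kb from TKO peaks, and H3K4me3 covered 5.15 kb of it in WT, 4.29 kb in D1240A, 4.41 kb in F1295A and 4.07 kb in TKO cells. The L1CAM peak, at a neural adhesion gene, was 14.224 kb wide, with a TKO peak 2.54 kb away and mutant peaks 235 and 233 kb away. CADM3, a synaptic adhesion gene, was met at its far end only, as was ICAM4, whose record its peak did not enter. For L1CAM no annotated start site lay within 1 kb of the member. CELSR2, an atypical cadherin of planar cell polarity, had a peak of 6.242 kb 37.0, 41.5 and 33.8 kb from D1240A, F1295A and TKO peaks. LAMA5, a laminin chain, had 7.308 kb over its start with 1.79, 2.53, 3.34 and 1.06 kb of H3K4me3 in WT, D1240A, F1295A and TKO cells. COL9A3, a collagen chain, shared a peak with OGFR 23.3 kb from each other form. CD44 and NECTIN2 held a member inside the gene and away from its ends.

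Of 54 guidance ligands and receptors, 4 were met (7.41%, beside 1.02% of all genes), and 23 had any WT H3K27me3. PLXND1, a receptor of class 3 semaphorins, had 7.372 kb over its start (chr3:129605826-129613197), 257 kb from D1240A, 244 kb from F1295A and 187 kb from TKO peaks. ROBO3, a receptor that acts in axon crossing of the midline, had a peak of 6.587 kb and no peak of another form within 526 kb. The next WT peak was as far from it, at 528 kb. SEMA7A and EPHA10 had H3K27me3 of another form within 10 kb of an end, and SEMA7A was met at its far end only. Of 31 TNF family genes, 9 had any WT H3K27me3, and 2 were met (6.45%): TNFRSF13C, the receptor of the B cell survival factor BAFF, and TNFRSF18, a costimulatory receptor also called GITR. The TNFRSF13C peak lay 436 kb from D1240A, 430 kb from F1295A and 40.0 kb from TKO peaks. Of 45 ion channel genes, 25 had any WT H3K27me3 and 1 was met, KCNH4, 0.937 kb from a TKO peak. There were 0 members at the ends of 20 plasma cell, 29 T, NK and myeloid, 39 HOX and 78 developmental factor genes. The same held for 16 cell cycle, 49 WNT and Notch, 22 keratin, 20 housekeeping and 26 integrin genes. Beside the 1.02% of all genes, lists of these sizes are too short to give a 0 meaning. With a window of 2.5 kb, 1 T, NK and myeloid, 1 developmental factor and 2 WNT and Notch genes were met. PAX6, an eye and brain factor, and the ligand genes WNT3A and WNT9A did hold members farther inside.

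Other named ligands and receptors were picked after their values were seen. IL6R, the receptor of the myeloma growth factor interleukin 6, had a peak of 5.026 kb over its start (chr1:154404477-154409502). H3K4me3 covered 3.03 kb of it in WT, 4.66 kb in D1240A, 3.68 kb in F1295A and 2.92 kb in TKO cells. The nearest TKO H3K27me3 peak was 12.4 kb away, and TKO cells also had one within 1 kb of an end of the gene record. SHH, a hedgehog ligand, had 6.187 kb over its start, 1769 kb from D1240A, 2029 kb from F1295A and 271 kb from TKO peaks, without H3K4me3 in any form. DHH, another hedgehog ligand, had 5.468 kb, 107, 784 and 102 kb from D1240A, F1295A and TKO. RSPO3, an enhancer of Wnt signalling, had 3.156 kb over its start, 6.77 Mb from a TKO peak. ALK, a receptor tyrosine kinase, had 3.901 kb, 1.21 Mb from one. EGR1, an immediate early factor, had 6.943 kb with a TKO peak 0.696 kb away and H3K4me3 in all 4 forms.

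Members at FAM90A22, TBC1D3H, RASA4 and SULT1A3 lie in gene families with near-identical copies, where reads cannot be placed with certainty. Members also reached an end of 96 of 18177 long non-coding RNA genes and of 6 of 1911 miRNA genes, among them MIR1286 and MIR5193.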

How the data were processed

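H3K27me3 and H3K4me3 were mapped in 4 forms of TKO cells, in 16 samples and 12 groups of form and antibody. IgG samples were not analysed here. The submitters' processing notes list Trimmomatic 0.36, FastQC 0.11.4, Bowtie2 2.4.5, SEACR 1.3 and GRCh38. Settings of peak calling, and how replicates were combined, were not given in the sources used. The labels name 1 list for the 2 H3K27me3 replicates of each form. The deposited lists give each peak's highest signal (coverage) and a total, used as the authors' score, on a scale that is unstated. In 11 WT peaks, 3 of them members, the total exceeded the highest signal times the width, so totals were used only for ranks and a floor per base. Depth is unknown.

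Overlap meant at least 1 bp. Gene records, start sites and promoters came from RefSeq on GRCh38.p14, and a gene end was the 1 kb on either side of a record's end. Shares have Clopper-Pearson 95% intervals. Work was done in Python 3.11.15 with numpy 2.4.6, pandas 2.3.3, scipy 1.17.1 and matplotlib 3.10.9, and overlap steps were tested on simulated data. Members and gene lists were chosen with earlier results of these data known. Genes were named as the 12 members of highest total signal, the 8 widest, the 10 with most WT H3K4me3, the 6 farthest from other forms, list genes, and 5 at each edge of the rule. Others were chosen after their values were seen. Alternatives changed overlap, signal floor, peak number, width, gene window and chromosome 1.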

Additional observations from a re-analysis of the deposited data

How the results depend on the processing

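No paired analysis was possible because each form has a single list per mark. The number of WT-only peaks lay between 268 and 493 under 8 alternatives, 2 of them added after seeing the data. It fell to 200 above a common floor of signal per base and to 44 in the stronger 50% of the WT list. With 2083 of the strongest peaks from each list, the 268 peaks included 60 of the 397. Of the 200 above the floor, 9.0% met H3K4me3 in WT, 9.0% in D1240A, 13.0% in F1295A and 8.0% in TKO cells. Genes at members numbered 126 above that floor and 103 by start site alone, against 203. List genes numbered 25 with a window of 2.5 kb and 28 over whole records, against 16. The share of peaks on a gene end was 40.1% by any overlap, 31.2% with 2.5 kb and 21.0% above the floor, against 14.4%. The number of members with H3K4me3 in F1295A alone was 4, against 10, when all lists had equal peak numbers. Without depth, loss of the mark and a missed call cannot be told apart.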
